A study of Mus musculus with 27 samples.

Results

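Glycolysis and the response to low oxygen were followed in embryonic mouse hearts through a set of 35 listed genes: 16 enzymes of the glycolytic path, 3 genes of the lactate and pyruvate step, 4 glucose and lactate transporters, 4 oxygen sensors and subunits of hypoxia-inducible factor (HIF), and 8 genes known as targets of HIF. Each gene was taken by the symbol of the array platform from a probe set that carries that symbol alone, and where a gene had several such probe sets the one with the highest mean signal was used. This gave values for 32 of the 35 genes, among 19935 genes measured in all. Gpi1 and Eno1 had no probe set under this rule, and Gapdh was carried only by probe sets with several symbols.

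The study profiled hearts dissected at E11.5, counted in days of embryonic development, from mice of a C57Bl/6/BLKSW mix. Biotin-labelled total RNA was read on 27 Affymetrix arrays. Of these, 6 were wild type, 6 had lost 1 copy of Brg1 (Brg1+/-), 5 had lost a copy of Tbx5 (Tbx5+/-) and 4 a copy of Nkx2-5 (Nkx2-5+/-). Compound heterozygotes made up the other 2 groups, with 3 arrays labelled Tbx5+/- Brg1 +/- and 3 labelled Nkx2-5+/- Brg1+/-. The design asks what the loss of 1 copy of a cardiac transcription factor, of the chromatin remodelling ATPase Brg1 (encoded by Smarca4), or of both does to the heart's transcripts. The labels do not say whether each array is a separate embryo or a pool, so the p-values below measure the spread between arrays.

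Glycolysis splits glucose into pyruvate. Glucose enters through facilitative transporters, is trapped by hexokinase, committed by phosphofructokinase, cleaved by aldolase and carried through the lower enzymes to pyruvate kinase. Lactate dehydrogenase then turns pyruvate into lactate, which leaves through Slc16a3, while Pdk1 keeps pyruvate out of the mitochondrion by inhibiting pyruvate dehydrogenase. When oxygen falls, the prolyl hydroxylases Egln1 and Egln3 no longer mark HIF alpha subunits (Hif1a, Epas1) for destruction, and HIF binds a short core sequence near many glycolytic genes and near Vegfa, Adm, Bnip3, Car9 and others. The heart of the embryo lives in low oxygen and draws on glucose more than the adult heart does.

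That core can be read in the promoters of several genes whose signals were lower in Nkx2-5+/- hearts (results further on). The 150 bases before the annotated start are printed for 7 of them, taken from RefSeq on the build GRCm38.p6. They were picked to show the range, from 5 matches to none. Letters in capitals mark ACGTG or GCGTG on either strand, where CACGT and CACGC are the matches read on the other strand. All are written 5′ to 3′ on the strand of the gene, and on each line the last base is the one just before the start.
Pfkp (chr13:6648772-6648921, minus strand): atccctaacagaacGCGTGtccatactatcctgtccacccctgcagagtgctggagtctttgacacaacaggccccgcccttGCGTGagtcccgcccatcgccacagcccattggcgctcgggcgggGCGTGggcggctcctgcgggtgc
Pgam1 (chr19:41911721-41911870, plus strand): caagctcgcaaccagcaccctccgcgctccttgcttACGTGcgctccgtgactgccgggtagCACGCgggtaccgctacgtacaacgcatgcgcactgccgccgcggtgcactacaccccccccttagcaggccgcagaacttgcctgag
Eno3 (chr11:70657026-70657175, plus strand): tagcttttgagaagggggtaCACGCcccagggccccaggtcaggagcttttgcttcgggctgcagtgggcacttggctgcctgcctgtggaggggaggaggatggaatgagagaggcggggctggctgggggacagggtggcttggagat
Ldhb (chr6:142507958-142508107, minus strand): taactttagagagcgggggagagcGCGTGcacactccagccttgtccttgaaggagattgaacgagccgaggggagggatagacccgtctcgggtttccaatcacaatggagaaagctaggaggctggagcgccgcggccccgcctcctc
Adm (chr7:110627507-110627656, plus strand): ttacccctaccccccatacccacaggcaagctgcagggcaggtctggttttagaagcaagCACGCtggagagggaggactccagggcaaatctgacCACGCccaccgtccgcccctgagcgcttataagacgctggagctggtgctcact
Bnip3 (chr7:138909507-138909656, minus strand): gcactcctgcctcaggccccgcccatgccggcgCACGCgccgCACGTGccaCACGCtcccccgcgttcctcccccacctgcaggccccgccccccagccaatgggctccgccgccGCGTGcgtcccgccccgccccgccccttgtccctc
Pgam2 (chr11:5803797-5803946, minus strand): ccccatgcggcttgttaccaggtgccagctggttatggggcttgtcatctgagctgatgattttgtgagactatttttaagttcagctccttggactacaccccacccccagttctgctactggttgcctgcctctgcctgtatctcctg
In this stretch Bnip3, which encodes a mitochondrial outer membrane protein of the autophagy machinery, held 5 matches, some of them overlapping. The first base of these matches lay at positions -117, -108, -107, -99 and -35, counted with -1 as the base next to the start. Pfkp had matches at -136, -68 and -23, Pgam1 at -114 and -88, and Adm at -90 and -54. Eno3 and Ldhb each had 1 match, at -130 and -126. Pgam2, the muscle form of phosphoglycerate mutase, had 0 in these 150 bases.

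Promoter windows of 300 bases, which run from 250 before to 50 after the start, were on hand for 31 of the 35 genes, in 44 windows since some genes have several starts. ACGTG or GCGTG on either strand occurred in 35 of the 44 windows (79.5%), against 43.8% of all 32851 RefSeq promoter windows of the same length. ACGTG alone occurred in 52.3% of the windows of the listed genes and in 19.6% of all windows. The windows of the listed genes were also richer in G and C, with a median of 61.7% against 52.7% over all windows, and the part of base composition in these shares was not tested. Among the 11 genes called lower in Nkx2-5+/- hearts, 10 of 14 windows held the core (71.4%), and among the 17 measured genes with a window that were not called it was 21 of 25 (84%). The element TNAAGTG, known as a binding sequence of Nkx2-5, was present on either strand in 4 of the 44 windows (9.09%) and in 3790 of all 32851. A match is a stretch of letters and not a measured binding site.

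Before the members are described, 3 arrays need to be named because a gene they are labelled as having lost a copy of stood within the wild-type range. Smarca4 stood between 9.95 and 10.16 on the log2 scale in wild type and between 9.16 and 9.45 in Brg1+/-. The array labelled Nkx2-5+/- replicate 3 had Smarca4 at 9.57, below every wild-type array, and Nkx2-5 at 9.39, within the wild-type range of 9.17 to 9.96, whereas the other 3 Nkx2-5+/- arrays had Nkx2-5 between 8.48 and 8.63. The array labelled Tbx5+/- Brg1 +/- replicate 3 had Smarca4 at 10.01, within the wild-type range. The array labelled Nkx2-5+/- Brg1+/- replicate 2 had Nkx2-5 at 9.235, within the wild-type range, with Smarca4 at 9.26, below it, and the other 2 arrays of that group had Nkx2-5 at 9.03 and 8.85. Tbx5 was not lower in Tbx5+/- (8.80 ± 0.17, SD, n = 5) than in wild type (8.57 ± 0.20, n = 6), and where its probes lie relative to the deleted part was not known here, so it checks nothing. All directions given below for Nkx2-5+/- rest on a group that includes the array labelled replicate 3, and counts are also given without it, in a fit that leaves out the array labelled Tbx5+/- Brg1 +/- replicate 3 as well. The array labelled Nkx2-5+/- Brg1+/- replicate 2 stays in that fit, and the comparisons that use it are given without it too. The tissue label was checked against 20 heart muscle genes, all of which were measured and 19 of which lay above the 90th percentile of all gene means.

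The members showed their clearest differences in Nkx2-5+/- hearts. In a limma fit over all genes and arrays, 11 of the 32 measured members were lower in Nkx2-5+/- than in wild type at an adjusted p under 0.05, and 0 were higher. Over all 19935 genes tested, 5.16% were called lower, 2.72% higher and 7.89% in either direction. The median log2 fold change of the members was -0.40, against -0.01 over all genes, and 28 of the 32 were below 0. The glycolytic enzymes gave 7 of 13 lower (Pfkp, Aldoa, Tpi1, Pgam1, Pgam2, Eno3 and Pkm), the lactate and pyruvate step 1 of 3 (Ldhb), the HIF and sensor genes 1 of 4 (Hif1a), the HIF targets 2 of 8 (Adm and Bnip3) and the transporters 0 of 4. In whole hearts, fewer cells of a type and less RNA per cell cannot be told apart.

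The call depended on which arrays entered. The array labelled replicate 3 stood above all wild-type arrays for 15 members and below all of them for 4, where 21.7% of all genes stood above and 18.9% below. Replicates 1, 2 and 4 lay below all wild-type arrays for 21, 24 and 24 members, and on these arrays between 24.3% and 26.8% of all genes did so. Without the array labelled replicate 3, 22 members were lower and 1 was higher, with 15.2% of all genes called lower and 6.56% called higher, and the median of the members was -0.68. The groups then did not overlap for 20 members that were lower and for 1 that was higher, against 11.8% and 6.12% of all genes. Without replicate 2 or without replicate 4 a single member was called, lower, with 0.286% and 0.893% of all genes called lower. Without replicate 1 it was 5 members, all lower, with 3.37% of all genes, so the calls over all genes moved with the same arrays.

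**Figure D1:**
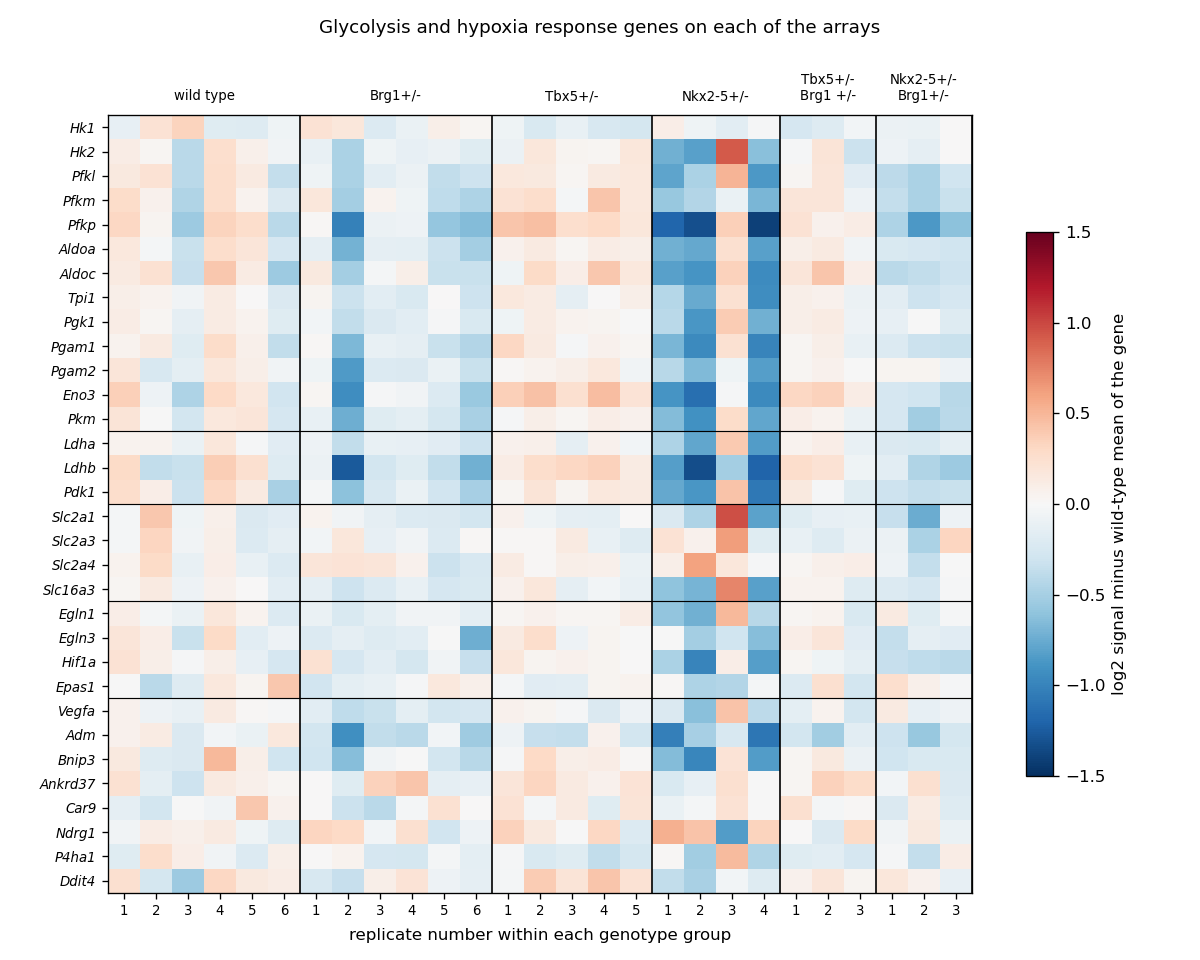
Log2 signal of the 32 measured members (rows) on each of the 27 arrays (columns, by genotype group and replicate number), as the difference from the gene's wild-type mean; blue is lower, red is higher, and lines separate the groups of arrays and the roles of the genes. Replicates 1, 2 and 4 of Nkx2-5+/- are blue over most rows, the array labelled replicate 3 is red for 15 members that stood above all wild-type arrays (as did 21.7% of all genes), and Brg1+/- replicate 2 is below all wild-type arrays for 21 members (as were 20.9% of all genes).

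At the upper end of the path, Pfkp, the platelet-type phosphofructokinase, had the lowest fold change of the enzymes. In wild type its lowest, median and highest log2 signals were 9.49, 10.19 and 10.37, and in Nkx2-5+/- replicates 1 to 4 gave 8.85, 8.72, 10.39 and 8.64. The array labelled replicate 3 was above all wild-type arrays and the other 3 were below all of them, so the groups overlap. The log2 fold change was -0.89 ± 0.25 (SE, limma adjusted p = 0.0282), and -1.30 without that array. Pfkm, the muscle form, gave 9.33, 9.46, 9.79 and 9.21 in Nkx2-5+/- against 9.44, 9.96 and 10.18 (lowest, median, highest) in wild type, a difference of -0.45 ± 0.15 that was not called (adjusted p = 0.0541). Pfkl, the liver form, gave 9.41, 9.73, 10.71 and 9.35, with a difference of -0.41 ± 0.18 (adjusted p = 0.163). In all 3 forms the array labelled replicate 3 was the highest of its group.

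The hexokinases trap glucose in the cell. Hk2, the insulin-responsive form, stood at 8.06, 7.96, 9.70 and 8.15 in Nkx2-5+/- and between 8.38 and 9.03 in wild type. Here 3 arrays were below the whole wild-type range and the array labelled replicate 3 was above it, and the difference of -0.31 ± 0.21 was not called (adjusted p = 0.407). Hk1 was read on a probe set that the platform lists with 1 transcript record and that ranged only from 12.65 to 13.25 over all 27 arrays. It differed by -0.03 between Nkx2-5+/- and wild type, and the other Hk1 probe set, listed with 8 records, by 0.06.

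Aldolase cleaves fructose bisphosphate. Aldoa, the muscle aldolase, fell by 0.51 (log2, SE 0.16, adjusted p = 0.0406), with 12.08, 12.04, 13.05 and 11.99 in Nkx2-5+/- against 12.48, 12.87 and 13.06 (lowest, median, highest) in wild type. Again 3 arrays lay below the wild-type range and the array labelled replicate 3 at its top. Aldoc, the brain aldolase, followed the same order with 6.91, 6.83, 8.06 and 6.77 against a wild-type range of 7.17 to 8.11, and its difference of -0.57 ± 0.20 was not called (adjusted p = 0.0684). Tpi1, triose phosphate isomerase, fell by 0.47 (SE 0.14, adjusted p = 0.0366).

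Along the lower path, Eno3, the muscle enolase, was at 9.67, 9.43, 10.54 and 9.61 in Nkx2-5+/- and at 10.10, 10.61 and 10.92 (lowest, median, highest) in wild type. All but the array labelled replicate 3 were below the wild-type range, and it fell by 0.75 in log2 units, a 1.68-fold difference (SE 0.19, adjusted p = 0.0177). Both phosphoglycerate mutases fell, Pgam1 by 0.60 (SE 0.17, adjusted p = 0.0294) and Pgam2 by 0.49 (SE 0.13, adjusted p = 0.0249). For Pgam2 the array labelled replicate 3, at 10.74, lay inside the wild-type range of 10.55 to 10.98 and the others were at 10.39, 10.14 and 9.97, below it. The 3 Pgam1 probe sets gave -0.60 each, and 2 of them hold the same values on every array, so they are not separate measurements.

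Pkm, pyruvate kinase of muscle, fell by 0.52 (SE 0.16, adjusted p = 0.0438), with 11.23, 10.98, 12.16 and 11.11 in Nkx2-5+/- against a wild-type range of 11.61 to 12.08. Its second probe set gave -0.41 ± 0.15, and Pkm was not called when that one was used. Pgk1, phosphoglycerate kinase, was at 12.02, 11.55, 12.80 and 11.69 against 12.23 to 12.54 in wild type, and the difference of -0.40 ± 0.14 was not called (adjusted p = 0.0838). Apart from Hk1, the fold changes of the measured enzymes ran from -0.89 for Pfkp to -0.31 for Hk2.

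The lactate step held the member with the lowest p. Ldhb, the heart-type lactate dehydrogenase subunit, was at 8.87, 8.36, 9.18 and 8.49 in Nkx2-5+/- and at 9.32, 9.72 and 10.06 (lowest, median, highest) in wild type. The groups do not overlap, which among all genes was so for 1.43% in the lower and 1.05% in the higher direction, and the array labelled replicate 3 was the highest of its group and still below every wild-type array. Ldhb fell by 0.97 in log2 units, a 1.96-fold difference (SE 0.19, adjusted p = 0.00573), and its second probe set gave -0.80. Ldha, the muscle-type subunit, had 12.39, 12.07, 13.23 and 12.01 against 12.68 to 13.02, with the array labelled replicate 3 above the wild-type range and the rest below it, and its difference of -0.42 ± 0.14 was not called (adjusted p = 0.0681). Taken array by array, Ldhb minus Ldha, with the wild-type mean set to 0, ran from -0.90 to -0.36 in Nkx2-5+/- and from -0.43 to 0.26 in wild type, so the ranges overlap. The end at -0.90 came from the array labelled replicate 3. Pdk1, the kinase that inhibits pyruvate dehydrogenase, was at 8.34, 8.23, 9.54 and 8.03 against 8.61 to 9.41, a difference of -0.57 ± 0.19 (adjusted p = 0.0659).

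**Figure D2:**
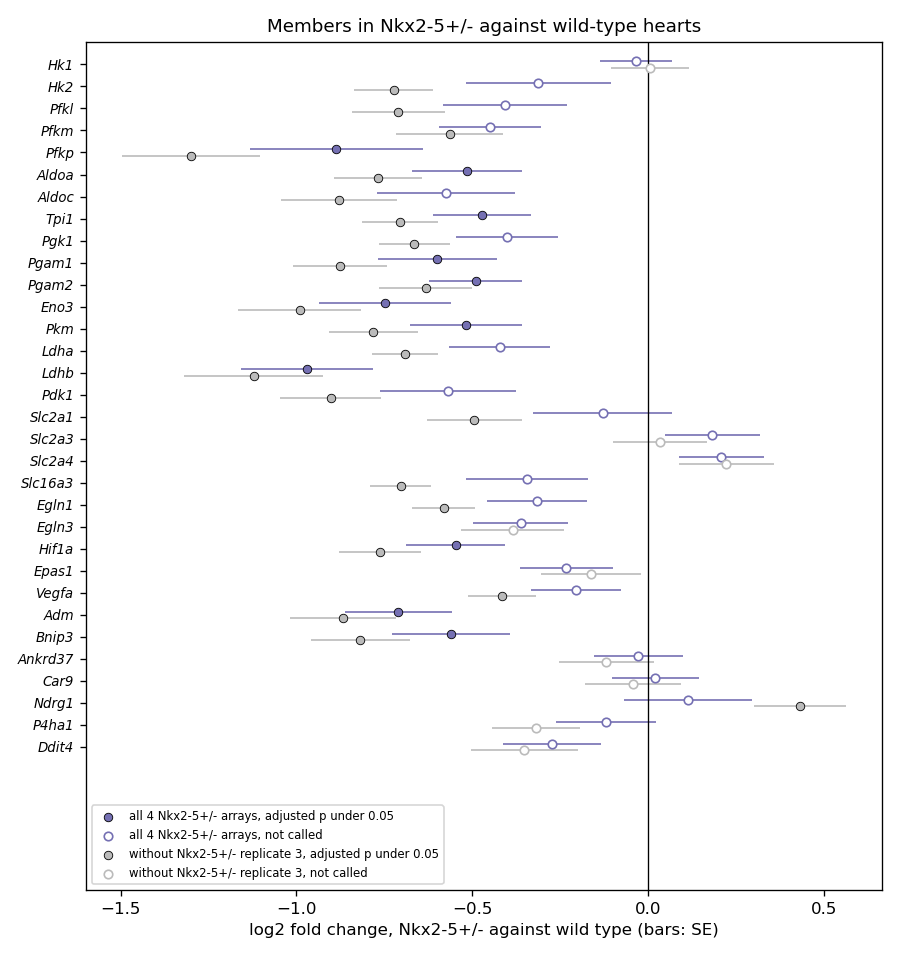
Log2 fold change of each measured member in Nkx2-5+/- against wild type (horizontal axis; bars are standard errors), with all 4 Nkx2-5+/- arrays (purple) and without the array labelled replicate 3 (grey); filled points had an adjusted p under 0.05. With all arrays 11 members are filled, the lowest being Ldhb at -0.97, and without that array 23 are, 22 to the left of 0 and Ndrg1 to the right.

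The plot of fold changes with and without the array labelled replicate 3 sets both fits side by side. The 11 members called in the first were all among the 23 called in the second.

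None of the 4 transporters was called in Nkx2-5+/- with all arrays in the fit. Slc2a1, the main glucose transporter of the embryonic heart, was at 11.65, 11.39, 12.82 and 11.05 in Nkx2-5+/- and at 11.64, 11.81 and 12.26 (lowest, median, highest) in wild type. The array labelled replicate 3 was the highest of all 27 arrays for this gene and replicate 4 the lowest, and the difference was -0.13 ± 0.20 (adjusted p = 0.773). Slc16a3, the lactate exporter, was at 9.41, 9.31, 10.74 and 9.20 against a wild-type range of 9.85 to 10.15, with 3 arrays below it and the array labelled replicate 3 above it, and its difference was -0.34 ± 0.17 (adjusted p = 0.244). Slc2a3, the neuronal-type glucose transporter, and Slc2a4, the insulin-responsive one, gave 0.18 ± 0.14 and 0.21 ± 0.12 (adjusted p = 0.477 and 0.329). Without the array labelled replicate 3, Slc2a1 and Slc16a3 were called lower (-0.49 and -0.70), and Slc2a3 and Slc2a4 were not called (0.03 and 0.22).

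Among the HIF genes, Hif1a, the broadly expressed oxygen-regulated subunit, was at 9.99, 9.48, 10.57 and 9.65 in Nkx2-5+/- and at 10.22, 10.50 and 10.68 (lowest, median, highest) in wild type. The array labelled replicate 3 lay inside the wild-type range and the rest below it. Its transcript fell by 0.55 in log2 units (SE 0.14, adjusted p = 0.0190). HIF activity is set mainly by the stability of the protein, which the arrays do not measure. Epas1, the subunit HIF-2 alpha known from endothelium, had a difference of -0.23 ± 0.13 that was not called (adjusted p = 0.321), and its values of 7.54, 7.05, 7.08 and 7.49 lay partly below the wild-type range of 7.12 to 7.93. The prolyl hydroxylases Egln1 and Egln3 differed by -0.32 ± 0.14 and -0.36 ± 0.13 (adjusted p = 0.179 and 0.0950).

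The HIF targets did not move together. Adm, the vasodilator peptide adrenomedullin, was at 6.65, 7.18, 7.44 and 6.59 in Nkx2-5+/- and at 7.46, 7.69 and 7.84 (lowest, median, highest) in wild type, so the groups do not overlap. It fell by 0.71 (SE 0.15, adjusted p = 0.00898). Bnip3 fell by 0.56 (SE 0.17, adjusted p = 0.0387), with 9.22, 8.89, 10.07 and 9.03 against a wild-type range of 9.57 to 10.35. Its second probe set gave -0.30 ± 0.15, and Bnip3 was not called when that one was used. Vegfa, the endothelial growth factor, gave 8.25, 7.84, 8.90 and 8.07 against 8.36 to 8.60, with 3 arrays below and 1 above the wild-type range, and its difference of -0.20 ± 0.13 was not called (adjusted p = 0.368). Ddit4, an inhibitor of mTOR signalling, differed by -0.27 ± 0.14 (adjusted p = 0.249).

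The remaining targets were near their wild-type means or went the other way. Ndrg1, a stress-responsive gene, was at 7.85, 7.74, 6.47 and 7.64 in Nkx2-5+/- against 7.11 to 7.44 in wild type. Replicates 1, 2 and 4 were above the wild-type range and the array labelled replicate 3 was below it. This is the reverse of the order in Hk2, Pfkp, Ldha, Slc16a3 and Vegfa. The Ndrg1 difference was 0.11 ± 0.18 (adjusted p = 0.787). Without that array Ndrg1 was called higher, by 0.43. Group means in Nkx2-5+/- and wild type were 6.80 and 6.82 for Ankrd37, an ankyrin repeat gene, 8.67 and 8.79 for P4ha1, a collagen prolyl hydroxylase, and 5.06 and 5.04 for Car9, a carbonic anhydrase, with overlapping groups. The Car9 signal lies near the dim end of the array, where a change is hard to see.

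**Figure D3:**
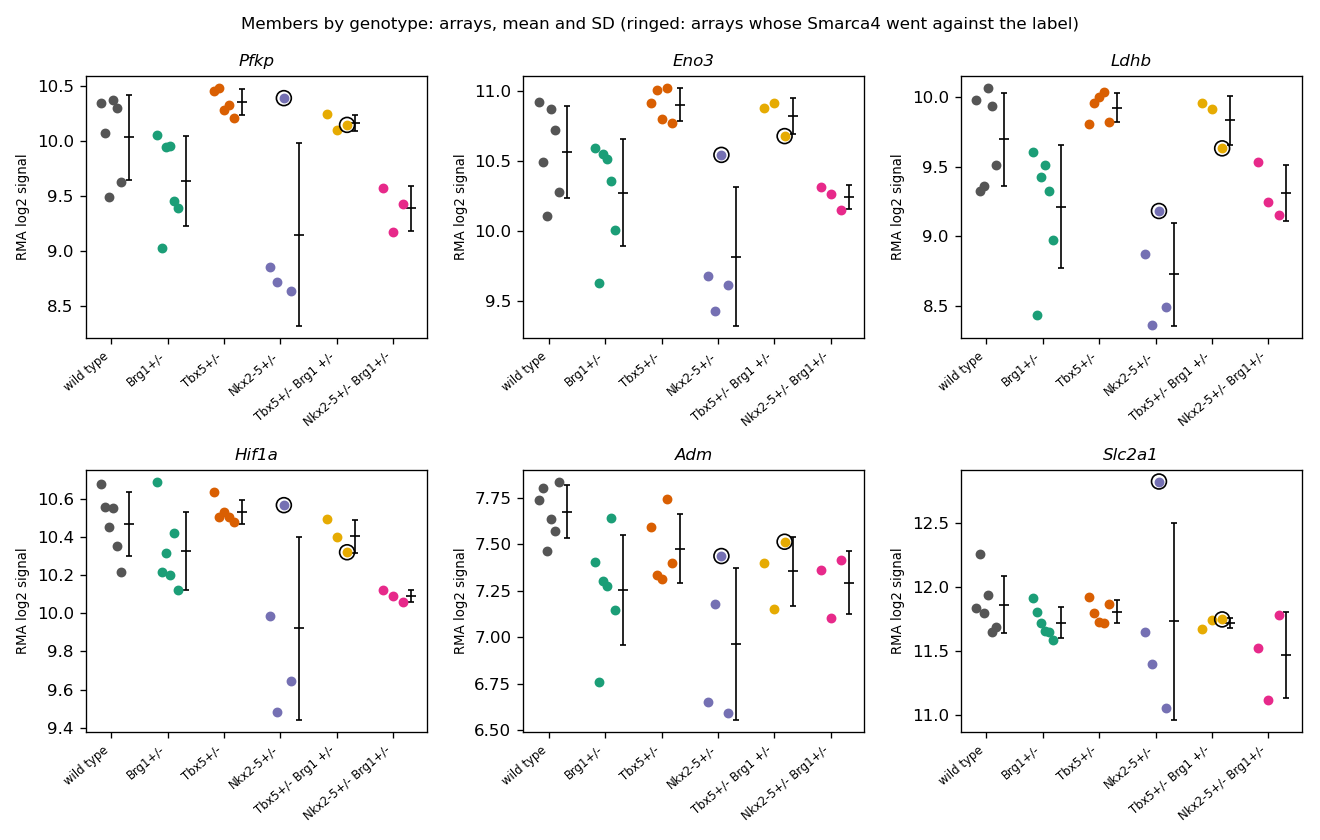
Log2 signal of 6 members by genotype group, one point per array, with the mean and SD of the group beside the points; rings mark the arrays labelled Nkx2-5+/- replicate 3 and Tbx5+/- Brg1 +/- replicate 3. Ldhb and Adm in Nkx2-5+/- lie below all wild-type arrays, and for Pfkp, Eno3, Hif1a and Slc2a1 the ringed Nkx2-5+/- array stands apart from the other 3.

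Genes of other cells moved alongside. Of 20 heart muscle genes, 14 were called lower in Nkx2-5+/- and 0 higher (median -0.50 on the log2 scale), and the mean of the list stood at 11.36, 11.16, 12.20 and 11.16 on replicates 1 to 4 against 11.76 to 12.23 in wild type. Of 15 measured genes of red cell precursors, 4 were called higher and 0 lower, with a median of 1.26, and their mean stood at 10.73, 10.66, 8.52 and 10.61 against 8.27 to 9.72 in wild type. On both lists the array labelled replicate 3 was within the wild-type range and the other 3 were outside it. With the mean of the red cell list as a covariate 0 members were called, and Ldhb and Adm then differed by -0.66 and -0.58 (adjusted p = 0.221 and 0.243). With the wild-type and Nkx2-5+/- arrays fitted alone, 0 members were called. The share of all genes called in either fit is not given, so a count of 0 does not single out the members.

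Other cell types were read from lists of their markers as well. Of 13 leukocyte genes 3 were called lower (median -0.42), with a list mean of 6.45, 6.14, 5.66 and 6.30 on replicates 1 to 4 against 6.27 to 6.79 in wild type. Of 8 epicardium genes 3 were called lower (median -0.38), with 9.13, 8.54, 8.90 and 8.81 against 9.07 to 9.38. On both lists replicate 2 and the array labelled replicate 3 were below the wild-type range, and replicate 4 was below it for the epicardium. Of 8 measured neural and glial genes 1 was lower, and of 8 foregut epithelium genes 1 was higher. None of the 10 endothelium, 10 cushion mesenchyme, 12 skeletal and pharyngeal muscle or 11 measured liver genes was called, while 0, 1, 2 and 1 of them had an unadjusted p under 0.05 in the limma fit. The part of any of these cell types, of red cells or of muscle content in the members' differences was not tested.

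**Figure D4:**
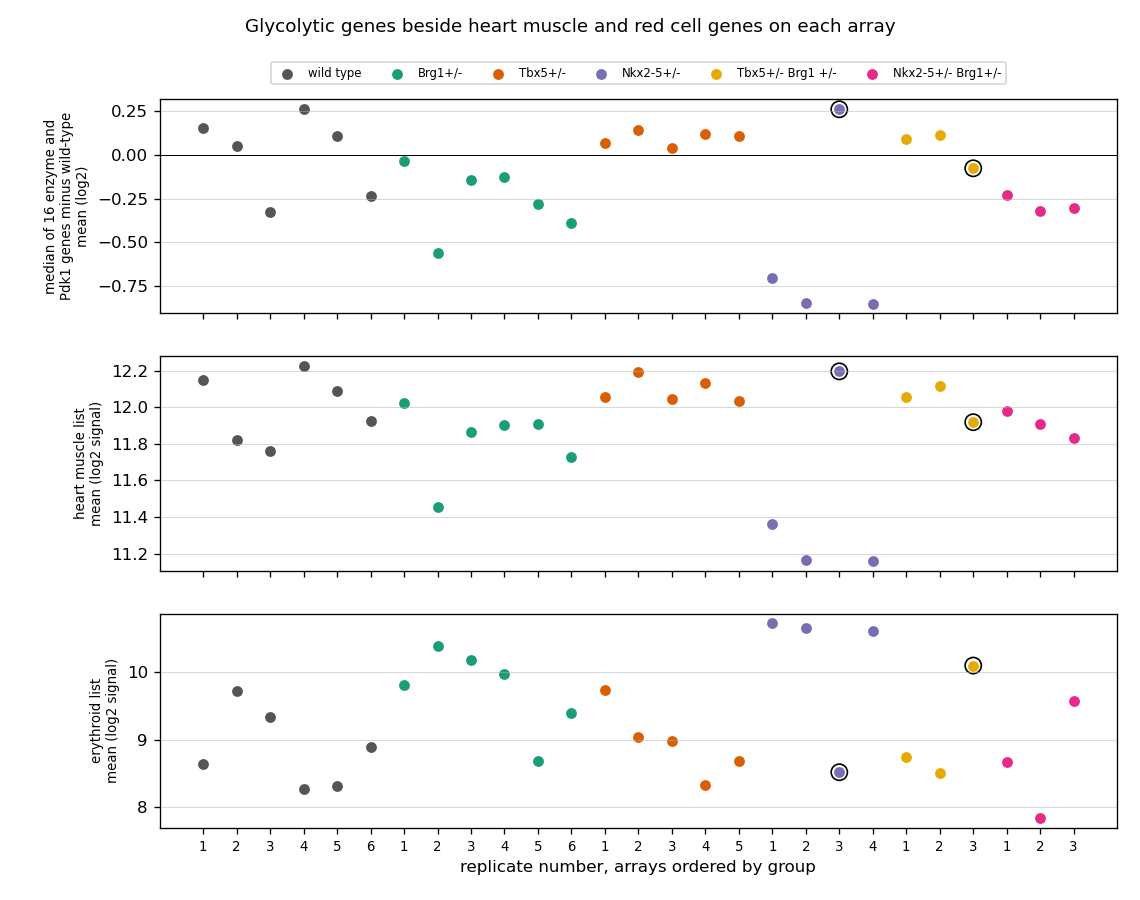
For each of the 27 arrays, in order of group: the median over 16 genes (the measured glycolytic enzymes, Ldha, Ldhb and Pdk1) of the log2 signal minus the wild-type mean (top), the mean log2 signal of the heart muscle list (middle) and of the red cell list (bottom); rings mark the arrays labelled Nkx2-5+/- replicate 3 and Tbx5+/- Brg1 +/- replicate 3. Replicates 1, 2 and 4 of Nkx2-5+/- lie lowest in the top and middle panels and highest in the bottom one, and Brg1+/- replicate 2 comes next in each.

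The plot of these 3 measures by array shows that the median of the glycolytic genes was -0.70, -0.84 and -0.85 on Nkx2-5+/- replicates 1, 2 and 4 and 0.26 on the array labelled replicate 3. In wild type the same median ran from -0.32 to 0.26.

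In Brg1+/- hearts no member was called against wild type, and 0.01% of all genes were. Of the 32 members, 6 had an unadjusted p under 0.05. The share of all genes at that unadjusted threshold is not given for this or other comparisons. Such counts therefore cannot show an excess among the members. The median of the members was -0.19, against -0.02 over all genes, and 28 of the 32 were below 0. Adm ran from 6.76 to 7.64 with a median of 7.29, against 7.46 to 7.84 in wild type, and had the lowest p of the members (log2 fold change -0.42 ± 0.14, adjusted p = 0.407). Ldhb differed by -0.48 ± 0.17 (adjusted p = 0.427), and by -0.22 ± 0.18 on its second probe set. Pfkp differed by -0.40 ± 0.22 (adjusted p = 0.569). Aldoa and Pkm differed by -0.32 ± 0.14 each, and the second Pkm probe set by -0.20 ± 0.14. Vegfa was the only member whose groups did not overlap, with 8.08 to 8.32 against 8.36 to 8.60 in wild type. In the lower direction 0.441% of all genes were apart in this way, and the difference of -0.26 ± 0.11 was not called (adjusted p = 0.473).

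The Brg1+/- arrays varied among themselves. Replicates 2 and 6 lay below all wild-type arrays for 21 and 20 members, with 20.9% and 18.5% of all genes. The other 4 did so for 3 to 7 members, with 14.4% to 18.7% of all genes. Replicate 2 had the lowest heart muscle mean of the group (11.46) and the highest red cell mean (10.39). Over the group, the median log2 fold change was 0.88 for the red cell list and -0.20 for the heart muscle list, with 0 genes of either called. Their part in the members' values was not tested.

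In Tbx5+/- hearts no member was called against wild type, 0% of all genes were, and 0 members had an unadjusted p under 0.05. The members had a median of 0.06 and 24 of the 32 were above 0. Eno3 was at 10.91, 11.004, 10.80, 11.02 and 10.77. All 5 were above the wild-type median of 10.61 and 2 were above the highest wild-type array, and the difference was 0.34 ± 0.18 (adjusted p = 0.9997). Pfkp, at 10.46, 10.48, 10.29, 10.33 and 10.21, differed by 0.32 ± 0.23. The 95% interval of the Pfkp difference ran from -0.16 to 0.79, so a difference of either sign is within it. Arrays of this group were close to each other, with a Pfkp SD of 0.12 against 0.39 in wild type.

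The compound groups gave no call either. In Tbx5+/- Brg1 +/- against wild type, 0 members and 0% of all genes were called, 0 members had an unadjusted p under 0.05, and the median of the members was 0.02. The lowest p was that of Adm, at 7.40, 7.15 and 7.51, with a difference of -0.32 ± 0.17 (adjusted p = 0.979). The array labelled replicate 3, whose Smarca4 was within the wild-type range, had the highest Adm of the group. Against Tbx5+/- alone, 0 members were called, the fold changes ran from -0.19 to 0.06, and 0 members had an unadjusted p under 0.05.

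In Nkx2-5+/- Brg1+/- against wild type, 0 members were called (0.0351% of all genes were, 0.0251% lower). An unadjusted p under 0.05 was found for 5 members, and the share of all genes at that threshold is not given. The median of the members was -0.21 with 29 of the 32 below 0. Hif1a was at 10.12, 10.09 and 10.06, below the whole wild-type range of 10.22 to 10.68. Adm, at 7.36, 7.10 and 7.42, was also below its wild-type range, and 2.56% of all genes were apart in this direction and 1.42% in the higher one. Their differences were -0.38 ± 0.15 and -0.38 ± 0.17 (adjusted p = 0.628 and 0.644). The array labelled replicate 2 of this group was below all wild-type arrays for 15 members and 22.8% of all genes, and replicates 1 and 3 for 7 members each, with 13.2% and 16.05% of all genes. Leaving it out gave 0 members and 0% of all genes called, and moved the median of the members to -0.20.

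Other members of this compound group overlapped with wild type. Pfkp was at 9.57, 9.17 and 9.43, with 2 arrays below the lowest wild-type array, and differed by -0.65 ± 0.27 (adjusted p = 0.642). Pfkm and Pkm differed by -0.39 ± 0.16 and -0.39 ± 0.17. Slc2a1 was at 11.52, 11.11 and 11.78, with 2 of 3 arrays below the wild-type range, and differed by -0.39 ± 0.22 (adjusted p = 0.689). Pgam2, at 10.84, 10.84 and 10.72, stood inside the wild-type range of 10.55 to 10.98. The red cell list had a mean of 8.67, 7.84 and 9.58 on these arrays and the heart muscle list 11.98, 11.91 and 11.83.

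The factors' single losses could be set against each other as well, in a comparison that shares the Nkx2-5+/- arrays with the one above. In Nkx2-5+/- against Tbx5+/-, 16 members were called lower and 0 higher, against 7.72% of all genes called lower and 3.45% higher, and the median of the members was -0.47. The 9 enzymes called were Pfkm, Pfkp, Aldoa, Aldoc, Tpi1, Pgam1, Pgam2, Eno3 and Pkm. Ldhb, Pdk1, Egln3, Hif1a, Adm, Bnip3 and Ddit4 were the other 7, and no transporter was called.

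Ldhb was 2.29-fold lower in Nkx2-5+/- than in Tbx5+/- (log2 fold change -1.20 ± 0.20, adjusted p = 0.000835). In Tbx5+/- it was at 9.81, 9.96, 10.001, 10.04 and 9.82, all above the Nkx2-5+/- values given earlier. Eno3 was 2.12-fold lower (-1.09 ± 0.20, adjusted p = 0.00134), and its groups did not overlap either. The same held for Pfkm (-0.65), Pgam2 (-0.54) and Ddit4 (-0.51), and 4.74% of all genes were apart in this direction and 3.57% in the higher one.

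Pfkp was 2.30-fold lower (-1.20 ± 0.26, adjusted p = 0.00412), with overlap through the array labelled replicate 3. The others called ran from -0.75 for Aldoc to -0.43 for Egln3. Without the array labelled replicate 3, 24 members were called lower, and 16% of all genes, with 6.88% called higher. Leaving out replicate 1, 2 or 4 of Nkx2-5+/- left 10, 4 and 6 members called, all lower, with 5.20%, 2.61% and 3.55% of all genes called lower. Leaving out Tbx5+/- replicate 4 left 10, with 4.86% of all genes. With the red cell mean as a covariate 2 were called, Eno3 and Ldhb, and with the arrays of both groups fitted alone 6 were. The share of all genes called in these fits is not given.

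Against Brg1+/-, 0 members were called in Nkx2-5+/- (0.0201% of all genes were in either direction), and the median was -0.19. An unadjusted p under 0.05 was found for 5 members, and the share of all genes at that threshold is not given. Hif1a had the lowest p of the members, with a difference of -0.41 ± 0.14 (adjusted p = 0.400). Pfkp and Ldhb each differed by -0.49 (SE 0.25 and 0.19, adjusted p = 0.606 and 0.478). With the array labelled replicate 3 left out, 17 members were called lower, and 5.57% of all genes, with 2.11% called higher.

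Whether a copy of Brg1 matters differently in the presence of a lost Nkx2-5 copy was asked with an interaction term, where the change on losing Brg1 in hearts with both Nkx2-5 copies is taken from the same change in Nkx2-5+/- hearts. Of the members, 3 were called, all higher: Ldhb (1.07 ± 0.28, adjusted p = 0.0285), Pgam2 (0.78 ± 0.20, adjusted p = 0.0244) and Adm (0.75 ± 0.22, adjusted p = 0.0493). Over all genes, 2.23% were called higher, 2.72% lower and 4.95% in either direction. For Ldhb the group means were 9.70 in wild type, 9.21 in Brg1+/-, 8.73 in Nkx2-5+/- and 9.31 in Nkx2-5+/- Brg1+/-, so the compound group lay above the single Nkx2-5 loss. Pgam2 stood at 10.80, 10.51, 10.31 and 10.80 in the same order, and Adm at 7.68, 7.25, 6.97 and 7.29. The median over the members was 0.40, against 0.03 over all genes, and 25 of the 32 were above 0.

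These 3 calls were not steady over the arrays, the probe sets and the models. The second Ldhb probe set gave 0.88 ± 0.29. With the next highest probe set of members with several, a setting chosen after seeing the data, Ldhb was not called, and Pgam2 and Adm were. Without Nkx2-5+/- replicate 2 or 4, 0 members were called, with 0.0602% and 1.39% of all genes called higher. Without Nkx2-5+/- Brg1+/- replicate 1, or without the array labelled replicate 2 of that group, it was also 0, with 0.0251% and 0.0401% of all genes called higher. Without wild-type replicate 4 it was 1, with 1.23% of all genes. Without the array labelled Nkx2-5+/- replicate 3, 20 were, and 10.8% of all genes were called higher and 5.53% lower. With the array labelled Nkx2-5+/- Brg1+/- replicate 2 left out besides, a setting chosen after seeing the data, 18 members were called higher and 1, Ndrg1, lower, with 9.81% and 4.83% of all genes. Among the members, a red cell covariate gave 0 calls, and so did a fit to the 4 groups alone. The share of all genes called in these fits is not given. The red cell list itself had a median interaction of -2.33, with 12 of 15 genes called lower, and the heart muscle list 0.67, with 3 of 20 called higher. Their part in the 3 calls was not tested.

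The direct comparison of the compound group with Nkx2-5+/- gave 0 calls among the members, against 0.0401% of all genes (0.0351% higher, 0.00502% lower). An unadjusted p under 0.05 was found for 4 members, and the share of all genes at that threshold is not given. Pgam2 differed by 0.49 ± 0.16 (adjusted p = 0.106), Ldhb by 0.59 ± 0.22 (adjusted p = 0.175) and Eno3 by 0.43 ± 0.22 (adjusted p = 0.367). Leaving out the array labelled replicate 3 gave 14 members called higher, with 7.06% of all genes called in that direction and 4.79% in the lower one. With the array labelled Nkx2-5+/- Brg1+/- replicate 2 left out besides, 9 were called higher, with 4.96% of all genes, and 2.95% of all genes were called lower. Leaving out that array alone gave 0 members and 0% of all genes. The interaction of Brg1 with Tbx5 called 0 members and 0% of all genes, and the median of the members was 0.15, with 0 of them at an unadjusted p under 0.05.

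Genes that surround the listed ones in metabolism were read from 5 further lists in Nkx2-5+/- against wild type. Of 11 measured glycogen genes 7 were called lower and 0 higher, with a median of -0.60. Pygm, muscle glycogen phosphorylase, fell by 1.03 in log2 units (SE 0.23, adjusted p = 0.0120) and Ppp1r3c, a subunit that brings a phosphatase to glycogen, by 0.84 (SE 0.16, adjusted p = 0.00573). Gys1, glycogen synthase, fell by 0.80 and Gyg, the glycogenin primer, by 0.66. Genes that build glycogen and the phosphorylase that breaks it down were thus lower together in these hearts.

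Around pyruvate dehydrogenase, 4 of 12 genes were called lower and 1 higher. The inhibitory kinases Pdk3 and Pdk4 fell by 0.72 and 0.74 (adjusted p = 0.0120 and 0.0142), and Pdha1, a catalytic subunit of the complex they inhibit, fell by 0.45 (adjusted p = 0.0284). Pcx, which carboxylates pyruvate instead, rose by 0.73 (adjusted p = 0.0120). Among 29 other glycolysis and glucose genes 4 were lower and 2 higher, with a median of -0.03. Galm, galactose mutarotase, and Pgm1, phosphoglucomutase, fell by 0.45 and 0.72 (adjusted p = 0.0180 and 0.0263). Pklr, the pyruvate kinase of liver and red cells, rose by 1.80, a 3.49-fold difference (SE 0.53, adjusted p = 0.0348), and Pfkfb2, which makes the activator of phosphofructokinase, by 0.63 (adjusted p = 0.0278).

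Of 34 further genes known to respond to hypoxia, 5 were lower and 1 higher. Vldlr, a lipoprotein receptor, fell by 1.004 (SE 0.17, adjusted p = 0.00229) and its groups did not overlap. Fam162a, a mitochondrial protein, Bhlhe40, a transcriptional repressor, and Mif, a cytokine, fell by 0.51, 0.56 and 0.45. The 1 that rose was Tfrc, the transferrin receptor by which red cell precursors take up iron (0.98, adjusted p = 0.0357), named here after its value was seen. None of the 8 other oxygen sensing and HIF genes was called, and 2 had an unadjusted p under 0.05. Those with the smallest p were Arnt2, a partner subunit, at -0.26 and Cited2, an inhibitor of HIF, at 0.33 (adjusted p = 0.136 and 0.194).

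Without the array labelled replicate 3 the same lists gave 8 of 11 glycogen genes lower, 8 of 12 pyruvate dehydrogenase genes lower and 1 higher, and 8 of 29 other glucose genes lower and 4 higher. The further hypoxia genes then gave 16 of 34 lower and 5 higher, and the other oxygen sensing genes 0 of 8.

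Members varied more within groups than the typical gene, with a median within-group SD of 0.24 on the log2 scale against 0.19 over all genes. Pfkp and Hk2 were the most variable members, with 0.43 and 0.35. These values rest in part on the array labelled Nkx2-5+/- replicate 3. Without it and the array labelled Tbx5+/- Brg1 +/- replicate 3, the medians were 0.195 for the members and 0.180 for all genes, Pfkp stood at 0.30 and Hk2 at 0.15, and Ldhb was the most variable member at 0.31. With all arrays the SD of Hk2 was 0.83 in Nkx2-5+/- and between 0.070 and 0.26 in the other groups.

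Related forms could be set against each other within an array. Aldoa minus Aldoc, with the wild-type mean set to 0, ran from -0.10 to 0.13 in Nkx2-5+/- and from -0.26 to 0.29 in wild type. Pgam2 minus Pgam1 ran from -0.29 to 0.29 in Nkx2-5+/- and from -0.38 to 0.32 in wild type, and from 0.25 to 0.36 in Nkx2-5+/- Brg1+/-. Epas1 minus Hif1a was between 0.40 and 0.60 in Nkx2-5+/- Brg1+/- and between -0.49 and 0.66 in wild type, so the ranges overlap. Other pairs ranged wider in Nkx2-5+/- with the array labelled replicate 3 included. Hk2 minus Hk1 ran from -0.82 to 1.08 there and from -0.73 to 0.42 in wild type. Slc2a4 minus Slc2a1 ran from -0.80 to 1.06, against -0.12 to 0.10, Egln3 minus Egln1 from -0.78 to 0.59, against -0.23 to 0.13, and Pfkm minus Pfkl from -0.61 to 0.23, against -0.15 to 0.14. The ends at 1.08, -0.80, -0.78 and -0.61 came from the array labelled replicate 3, and ranges without it are not given. The differences between related forms were described and not tested.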

How the data were processed

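The deposited table holds log2 signals, which the authors made with RMA in Affymetrix Power Tools, per the submitters' processing notes. Versions and a genome build are not given in the sources used here. The values were used as deposited. Of 28815 probe sets, 21780 carry 1 gene symbol in the platform annotation, and the one with the highest mean was kept for each of 19935 genes. Arrays carry no counts, so their number limits the precision. The 27 arrays were grouped by the labelled genotype and fitted with limma 3.58.1 in R 4.3.3 (a mean per group, 21 residual and 6.71 prior degrees of freedom, two-sided). p was adjusted by Benjamini-Hochberg over all genes in each of 11 comparisons and called under 0.05. The fit was run on simulated data with noise that was independent between genes and arrays. This does not cover arrays on which many genes deviate together. Figures were drawn with matplotlib 3.10.9.

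The members, lists and tests were chosen with earlier results of these data known. All members could be named, and from each other pathway list up to 4 called genes with the smallest p, or the 2 with the smallest p where none was called. Alternatives changed the normalization, probe sets, filter, prior, arrays, weights and covariates (red cell mean, Y-linked mean, replicate number). Same-numbered arrays of different groups showed no steady tendency to deviate together. The correlation was over 0.1 in 18 of 55 pairs, with a median of 0.01 and a range from -0.45 to 0.41.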

Additional observations from a re-analysis of the deposited data

Results flagged for a closer look

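In groups of 4 to 6 arrays, a single array stood far from the rest of its group for 10 of 128 combinations of member and group. A rate of about 1 in 20 would hold for values that vary independently. Members vary together on an array, and most flags fall on the array labelled Nkx2-5+/- replicate 3. No excess can therefore be read from the count. The array labelled Nkx2-5+/- replicate 3 was the highest of its group for Hk2 (9.70), Pfkp (10.39), Aldoa (13.05), Aldoc (8.06) and Slc16a3 (10.74), and the lowest for Ndrg1 (6.47). Brg1+/- replicate 2 was the lowest for Hk2 (8.30) and Pgam2 (9.95), and Brg1+/- replicate 6 for Egln3 (5.99). Tbx5+/- replicate 3 was the lowest for Pfkl (10.23).

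By the interaction in the limma fit, which compares the effect of Brg1 loss with and without the Nkx2-5 loss, 3 members were called. They were Pgam2 (0.78), Ldhb (1.07) and Adm (0.75), each above 0, with 2.23% of all genes called higher and 2.72% lower. These calls were not steady. Ldhb was not called when its second probe set was used. With the red cell covariate or with the groups fitted alone, 0 members were called. The same was so without Nkx2-5+/- replicate 2 or without replicate 4.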

How the results depend on the processing

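The count of members called in Nkx2-5+/- against wild type (11) was 7 with all probe sets tested, 7 with array medians equalised, 23 with array weights, 0 with the arrays of the compared groups alone, 0 with the red cell mean as a covariate and 23 without the arrays against their labels (here those labelled Nkx2-5+/- replicate 3 and Tbx5+/- Brg1 +/- replicate 3), and 1 to 23 with 1 array left out, where wild-type replicates 1, 4 and 5 gave 4 each. In Nkx2-5+/- against Tbx5+/- (16) it was 6 with the groups alone, 2 with the red cell covariate and 4 to 24 with 1 array left out. The Nkx2-5 by Brg1 interaction (3) gave 21 with weights, 0 with the groups alone, 0 with the red cell covariate, 20 without the arrays against their labels and 0 to 20 with 1 array left out. Array weights gave 3 in Nkx2-5+/- against Brg1+/-, 19 in Nkx2-5+/- Brg1+/- against Nkx2-5+/- and 4 in Nkx2-5+/- Brg1+/- against wild type, from 0 each; without the arrays against their labels the first of these gave 17 and the second 14, which are also the highest with 1 array left out (lowest 0 for both). The calls over all genes moved too. Without the arrays against their labels, 15.2% were called lower in Nkx2-5+/- against wild type, from 5.16% with all arrays. In the interaction 10.8% were then called higher, from 2.23%. The share of all genes is not given for settings that change the weights, covariates, probe sets, normalization or groups fitted. Those counts therefore do not show a change particular to the members. The cause was not tested. Leaving out the array labelled Nkx2-5+/- Brg1+/- replicate 2 besides these 2 arrays, chosen after seeing the data, gave 23 in Nkx2-5+/- against wild type, 19 in the interaction, 16 in Nkx2-5+/- against Brg1+/- and 9 in Nkx2-5+/- Brg1+/- against Nkx2-5+/-, with Hk1 at 0.0055 and Car9 at -0.043 against wild type. The other comparisons kept 0 calls under every alternative run.

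Reversed signs were those of uncalled members in Nkx2-5+/- against wild type: Hk2 at 0.11 and Ndrg1 at -0.24 with the red cell covariate, Ndrg1 from -0.027 to 0.43 and Slc2a1 from -0.49 to 0.10 with 1 array left out, below 0 for Ndrg1 without Nkx2-5+/- replicate 1 and above 0 for Slc2a1 without replicate 4. Hk1 had no steady sign: 0.022 with array medians equalised, 0.031 with weights, 0.013 with further quantile normalization, 0.013 with the mean of its probe sets, 0.061 with its next probe set, 0.0055 without the arrays against their labels and -0.081 to 0.032 with 1 array left out. Signs were also unsteady for Ankrd37 (0.029 with array medians equalised, 0.022 with further quantile normalization, 0.085 with the red cell covariate, -0.12 to 0.038 with 1 array left out), Car9 (-0.0019 with weights, -0.0013 with further quantile normalization, -0.043 without the arrays against their labels, -0.043 to 0.10 with 1 array left out) and P4ha1 (-0.32 to 0.016 with 1 array left out). With the replicate number as a block, 10 members were called in Nkx2-5+/- against wild type, 9 of them the same, 15 against Tbx5+/- and 2 in the interaction. Correlations between same-numbered arrays ran from -0.45 to 0.41, so a pairing by number was not shown. With the next highest probe set of members with several, an alternative chosen after seeing the data, 9 members were called in Nkx2-5+/- against wild type. Pkm and Bnip3 were the ones lost. It was 15 in Nkx2-5+/- against Tbx5+/-, with Pkm lost, and 2 in the interaction, with Ldhb lost. Signals near the dim end of the array, such as that of Car9, limit what can be seen.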
